A study of Mus musculus with 4 samples.

Results

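Highly proliferative M2 macrophages were the macrophages of mouse sarcomas to which the depositors gave that sub-cluster name within the cluster Macrophage of their table of non-malignant cells. The name was carried by 1297 cells, of 10363 macrophages, 12648 non-malignant cells and 31611 cells in all. They came from 4 tumors: 375 and 233 cells from 2 vehicle mice and 305 and 384 cells from 2 digoxin mice, listed here and below as vehicle 1, vehicle 2, digoxin 1 and digoxin 2. The other macrophages carried the names M2 (4786 cells) and M1 (4280 cells). The depositors' grounds for the names are not given in the sources used here, so the genes that set these cells apart from M2 and M1 are a description and were not tested.

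The tumors were hind limb sarcomas of an allograft model, labelled with the genotype Trp53flox/flox and the background strain 129/SvJae in all 4 mice; the genotype of the mice that carried the grafts is not given in the sources used here. Vehicle mice received PBS into the peritoneum. Digoxin mice received 2 mg/kg digoxin, a cardiac glycoside that inhibits the sodium pump, taken up in DMSO and diluted in PBS. Both were dosed every 24 h and the tumors were taken after the 4th dose, dissociated with collagenase, dispase and trypsin, and read with 10x Genomics 3′ droplet chemistry, which counts mRNA molecules by unique molecular identifiers (UMIs). By these labels the comparison with vehicle holds digoxin and DMSO together. The parts of drug and solvent cannot be told apart, and their joint difference is called the digoxin effect below. Each group was 2 mice, and macrophages from the host and any from the donor of the graft cannot be told apart by name.

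A cycling cell copies its DNA in S phase, after helicases of the MCM family have been licensed at replication origins, and then builds a spindle and divides in G2 and M phase. Macrophages divide within tissues under colony-stimulating factor 1, which acts through the receptor Csf1r, and tumor macrophages are renewed both by such division and from blood monocytes. The name M2 stands for the end of the macrophage spectrum that carries the mannose receptor Mrc1 and scavenger receptors, and M1 for the inflammatory end.

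Genes of the S phase and of mitosis carry different short elements near their starts. The sequences below show them for genes that were higher in these cells than in M2 cells. The 250 bases before the start are given 5′ to 3′ in the direction of transcription, from RefSeq (GRCm38.p6), for Mki67 (chr7:135716380-135716629, minus strand), Top2a (chr11:99024190-99024439, minus strand) and the mitotic ubiquitin-conjugating enzyme Ube2c (chr2:164769679-164769928, plus strand), and for Rrm1 (chr7:102441445-102441694, plus strand), a subunit of the enzyme that makes deoxynucleotides. Capitals mark CCAAT boxes, the mitotic element TTTGAA, its variant form TTTAAA and the E2F form GCGGGAA, each on either strand. Ube2c was picked among mitotic genes with both TTTGAA and CCAAT in these bases, and Rrm1 among replication genes with GCGGGAA. Their matches were therefore fixed by the choice. In these bases 8 of 35 mitotic windows (22.9%) held both elements, against 5.55% of all windows. Both also stood in 3 of 16 windows of origin licensing genes (18.8%), 2 of 22 of kinetochore genes (9.09%) and 2 of 37 of replication fork genes (5.41%). GCGGGAA stood in 8 of 37 windows of replication fork genes (21.6%), against 3.82% of all windows.
Mki67: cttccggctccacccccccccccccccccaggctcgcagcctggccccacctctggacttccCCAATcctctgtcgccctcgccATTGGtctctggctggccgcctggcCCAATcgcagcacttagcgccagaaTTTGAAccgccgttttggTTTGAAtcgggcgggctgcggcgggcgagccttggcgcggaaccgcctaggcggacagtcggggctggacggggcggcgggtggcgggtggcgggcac
Top2a: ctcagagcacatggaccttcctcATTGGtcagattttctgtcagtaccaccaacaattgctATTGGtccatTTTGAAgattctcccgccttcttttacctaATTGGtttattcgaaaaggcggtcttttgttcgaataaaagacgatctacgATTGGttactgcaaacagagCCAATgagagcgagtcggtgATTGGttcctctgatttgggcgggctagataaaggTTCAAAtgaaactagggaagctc
Ube2c: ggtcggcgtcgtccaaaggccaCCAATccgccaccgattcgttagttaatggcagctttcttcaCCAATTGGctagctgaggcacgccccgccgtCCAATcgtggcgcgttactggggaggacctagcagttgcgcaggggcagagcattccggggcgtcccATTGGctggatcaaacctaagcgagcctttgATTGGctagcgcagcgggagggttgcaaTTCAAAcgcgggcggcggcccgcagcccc
Rrm1: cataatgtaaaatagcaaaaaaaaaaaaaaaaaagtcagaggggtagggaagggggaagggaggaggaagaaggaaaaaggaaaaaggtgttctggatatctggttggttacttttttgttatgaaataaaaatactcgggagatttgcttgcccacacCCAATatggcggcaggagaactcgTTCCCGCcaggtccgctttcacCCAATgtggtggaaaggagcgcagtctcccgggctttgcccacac

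TTTGAA is the core of the element that mitotic genes are known for, and GCGGGAA is a form of the E2F site of replication genes. Over windows of 300 bases, 250 before and 50 after the start, TTTGAA stood in 26 of 35 windows (74.3%) of 32 matched genes for mitotic kinases, spindle and cytokinesis, against 17.9% of all 32851 windows of 27025 genes. In the 250 bases before the start alone it stood in 11 of the 35 windows (31.4%), against 16.0% of all, so most of the matches needed the 50 bases after the start. GCGGGAA stood in 0 of the 35 mitotic windows, in 12 of 37 windows (32.4%) of the replication fork genes, in 8 of 16 of the origin licensing genes, in 5 of 22 (22.7%) of the kinetochore genes and in 4.60% of all windows. The split between the lists was not complete, since TTTGAA also stood in 6 of the 16 licensing windows (37.5%) and in 9 of the 22 kinetochore windows. A window with the letters CCAAT was common throughout, at 37.4% of all windows and 65.7% of the mitotic ones. These matches describe the letters in the windows and not binding.

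The cells were checked against Csf1r, Mrc1, Mki67 and Top2a, with levels given as the mean over cells of UMIs per 1000000 UMIs (CPM). Mki67, a protein that coats mitotic chromosomes, was at 778, 792, 927 and 831 CPM in the 4 mice, against means of 62.0 in M2 and 21.1 in M1 cells. Top2a, the topoisomerase that untangles replicated DNA, was at 811, 747, 928 and 838 CPM, against 54.1 and 21.1. Every mouse's highly proliferative cells stood more than 10-fold above the M2 mean for both genes. Csf1r was at 424, 574, 473 and 405 CPM, between the means of M2 (757) and M1 (411) cells in 3 mice and just under the M1 mean in digoxin 2. Mrc1 was at 925, 777, 1043 and 827 CPM, also between M2 (2129) and M1 (473). All 4 genes were thus present, with both macrophage genes at lower CPM than in M2 cells.

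The cells also held more UMIs than the other macrophages, so levels in CPM and in UMIs per cell differ. The median number of UMIs per cell was 27030, 25066, 28898 and 27743, against 16330 to 17650 in M2 and 12918 to 14702 in M1 cells. Per cell, Csf1r gave a mean of 12.5 UMIs in the highly proliferative cells and 12.7 in M2 cells. Mrc1 gave 23.4 UMIs per cell against 35.99 in M2 and 8.40 in M1 cells, and so was lower than in M2 on both scales. With each cell thinned to 5000 UMIs, Mrc1 had a UMI in 69.5 to 76.6% of the cells per mouse, against 96.0 to 97.5% of M2 cells and 4.48 to 12.2% of the cells named NK, which should lack it. Mki67 had a UMI in 89.3 to 94.0% of the thinned cells, 15.3 to 22.9% of M2 and 7.26 to 8.82% of M1 cells. Unthinned, Mrc1 had a UMI in 82.4 to 90.2% of the cells and Mki67 in 98.2 to 98.9%, while NK cells had median depths of 10992 to 12449 UMIs.

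Before the comparison of treatments, 1 library has to be set apart. The highly proliferative cells of vehicle 2 had 0.00 CPM of the X-inactivation RNA Xist and 66.5 CPM of the Y-linked helicase Ddx3y, while the other 3 mice had 821, 1024 and 1050 CPM of Xist and at most 1.81 CPM of Ddx3y. Vehicle 2 was therefore of the other sex pattern, and values without it are given beside some of the results that turned or lost their size without it. Of these 1297 cells 0 shared a barcode between libraries among themselves, 10 of them had a barcode found in another library over both deposited cell tables, and 2 cells were marked as doublets. Summed markers of other lymphoid and dendritic cells were low, at 7.69 to 14.6 CPM over 8 T cell genes, 2.31 to 11.7 over 6 NK cell genes, 2.03 to 4.73 over 4 B cell genes and 2.55 to 7.53 over 6 dendritic cell genes. Markers of fibroblasts or sarcoma mesenchyme summed to 122 to 177 CPM, below M2 cells (180 to 267 CPM). The 6 neutrophil markers summed to 19.8 to 52.3 CPM. The 3 plasmacytoid markers summed to 106 to 171 CPM, near M2 cells (110 to 163 CPM), nearly all of it from Bst2, a tetherin that many cell types express, while Siglech and Ccr9 were at most at 1.65 and 0.95 CPM. Osteoclast markers are described further down.

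**Figure D1:**
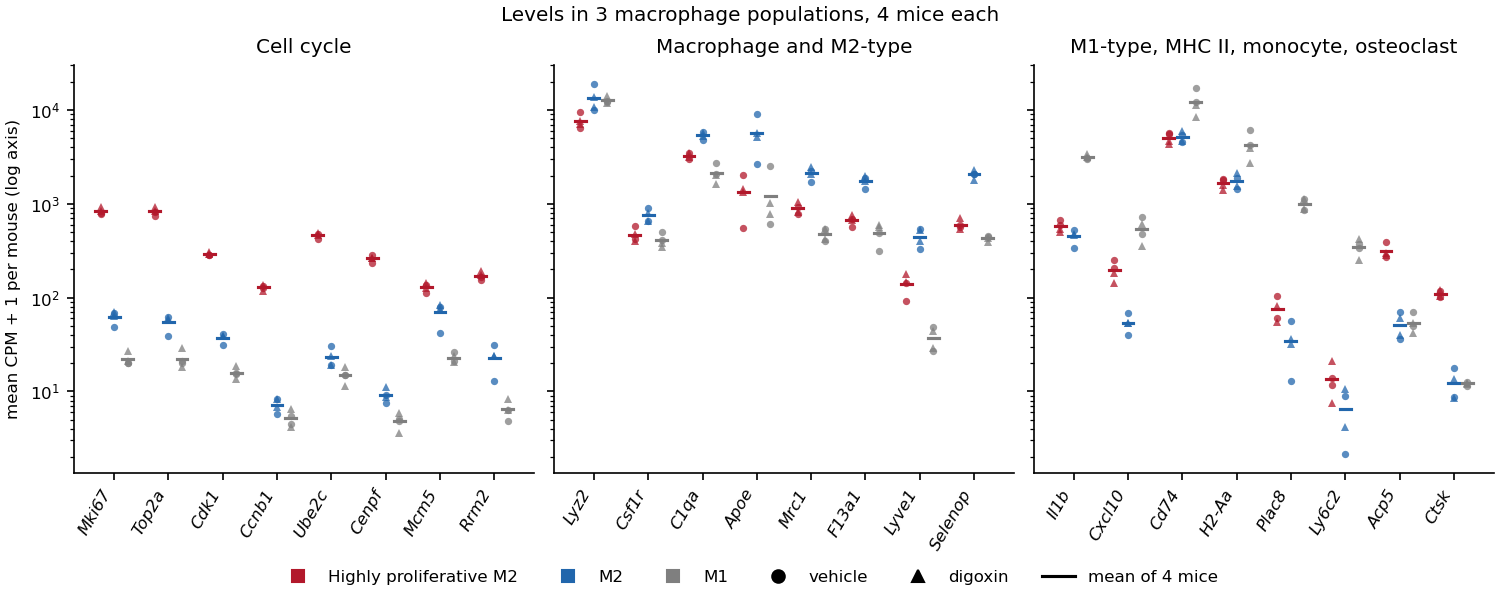
Mean level per mouse (CPM + 1, log axis) of cell cycle genes, macrophage and M2-type genes, and M1-type, MHC class II, monocyte and osteoclast genes in the highly proliferative M2, M2 and M1 cells, with circles for vehicle mice, triangles for digoxin mice and a line at the mean of the 4 mice. The cell cycle genes of the highly proliferative cells lie above both other populations (Mki67 at 778 to 927 CPM), while Selenop, Mrc1 and Lyve1 lie between M1 and M2.

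Replication genes were raised over M2 cells in every mouse, and by less than mitotic genes. All 19 origin licensing and firing genes and all 35 genes for the replication fork and nucleotide supply were higher than in M2 cells in all 4 mice, with median differences of 0.94 and 1.20 on the log2(CPM + 1) scale, and of 2.00 and 2.34 against M1. Among all 9504 genes with a mean of at least 5 CPM, 42.6% were higher and 31.6% lower than in M2 in all 4 mice, with a median of 0.07, and 52.7% were higher and 24.4% lower than in M1 (9493 genes). Mcm5, a subunit of the replicative helicase, was at 136, 111, 142 and 127 CPM against a mean of 69.0 in M2 and 21.9 in M1 cells. Tyms, which makes thymidylate, was at 208, 247, 244 and 253 CPM against 44.0 and 17.5. Rrm1 was at 233, 195, 250 and 205 CPM against 52.7 and 17.9. Gmnn, the geminin that keeps an origin from being licensed again, was at 147, 156, 159 and 157 CPM against 51.9 and 22.4.

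The mitotic apparatus set the cells apart most. All 36 genes of mitotic kinases, spindle and cytokinesis exceeded M2 in every mouse (median 3.59 on the log2 scale; 4.34 against M1), as did all 23 kinetochore and centromere genes (2.65; 3.48) and all 22 genes of chromosome structure and tubulin (2.44; 3.10). Ube2c, which works with the anaphase-promoting complex, was at 478, 425, 490 and 460 CPM against a mean of 22.1 in M2 and 14.0 in M1 cells. Birc5, the survivin subunit of the chromosomal passenger complex, was at 518, 549, 512 and 483 CPM against 41.6 and 16.3. Cenpf, a kinetochore protein, was at 236, 285, 265 and 261 CPM against 8.18 and 3.88, and the spread between the mice was small beside that distance. Among all genes with a mean of at least 50 CPM, the largest difference from M2 in log2(CPM + 1) was that of the linker histone gene Hist1h1b, at 447, 508, 574 and 607 CPM against a mean of 10.9. As a ratio of means the core histone gene Hist1h2ap was farther apart (54.6-fold, against 49.0-fold for Hist1h1b). Histone mRNA made for S phase mostly lacks a poly(A) tail, so its level in a poly(A)-primed library is a level of what was captured.

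Cyclins and their kinases were high as well, and inhibitors of the cycle were present beside them. Of 18 cyclins, kinases and their partners, 16 were higher than in M2 in all mice (median 2.22), with Cdk1, the mitotic kinase, at 281, 287, 306 and 293 CPM against 36.5 in M2 cells and Ccnb1, its cyclin, at 125, 133, 135 and 116 CPM against 6.24. Ccnd1, the cyclin of G1, was at 295, 163, 252 and 303 CPM, a range that held the M2 mean of 257. Of 19 brakes and cell cycle transcription factors, 14 were higher than in M2 in every mouse and 2 were lower. Cdkn2c, an inhibitor of the G1 kinases, was at 97.0, 118, 114 and 88.6 CPM against 13.1 in M2. Cdkn1a, the p21 inhibitor and a p53 target, was at 459, 420, 542 and 501 CPM, near the mean of M2 (446) and below that of M1 (641) cells.

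**Figure D2:**
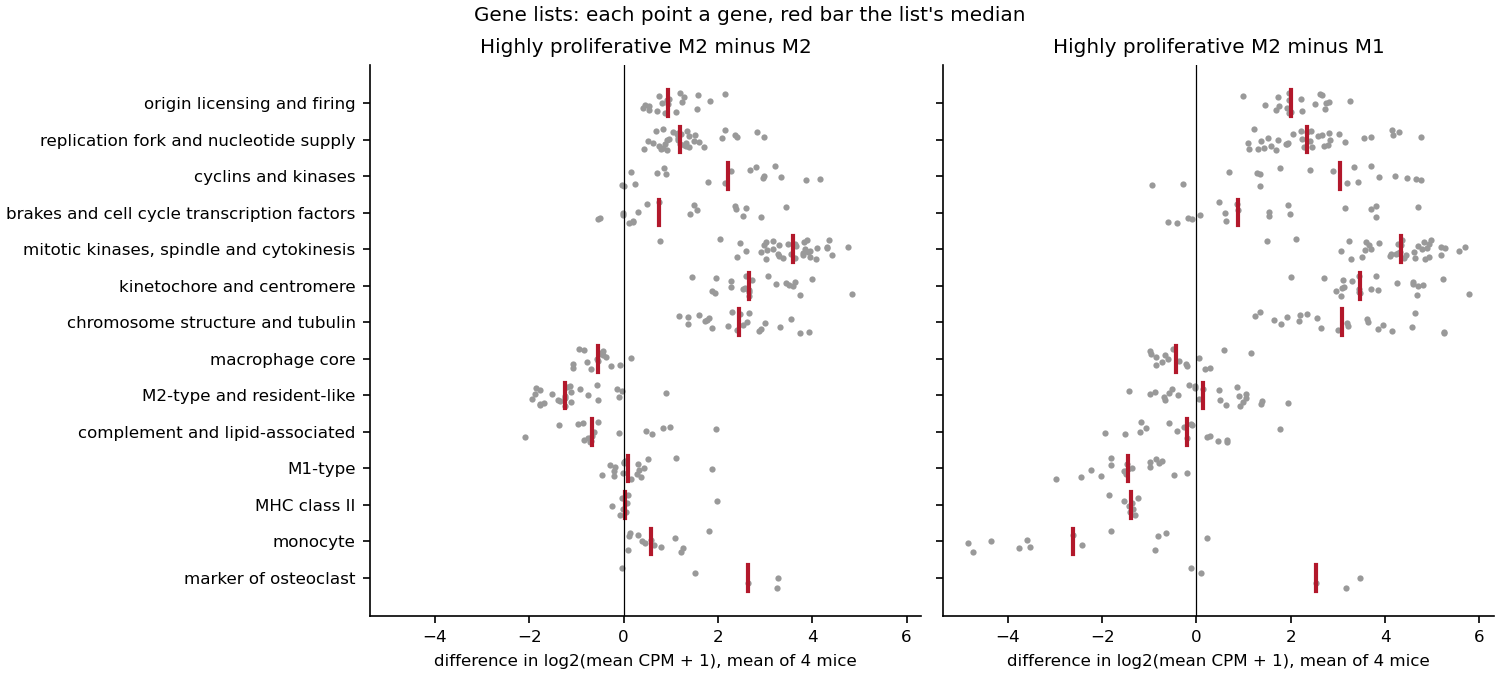
Difference of the highly proliferative cells from M2 (left) and M1 cells (right) in log2(mean CPM + 1), averaged over the 4 mice, with 1 point per gene and a red bar at the median of each list. Every gene of the licensing, fork, mitotic, kinetochore and chromosome lists lies to the right of 0 in both panels, and the mitotic list lies farthest right (medians 3.59 and 4.34).

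Macrophage genes were present at lower CPM than in M2 cells. Of 16 genes of the macrophage core, 14 were below M2 in every mouse (median −0.53), with Lyz2, lysozyme, at 6410, 9552, 7030 and 7735 CPM against an M2 mean of 13436. Per cell, Lyz2 gave 214 UMIs against 245 in M2 and 193 in M1 cells. Of 25 M2-type and resident-like genes, 21 were below M2 in every mouse (median −1.24), and against M1 cells 11 (44.0%) were above and 5 below (median 0.14), under the 52.7% and 24.4% of all genes. Selenop, a secreted selenium carrier, was at 561, 597, 702 and 543 CPM against 2064 in M2, and Lyve1, a hyaluronan receptor, was at 142, 91.1, 147 and 180 CPM against 447. Both genes were between M1 and M2, as was F13a1, a coagulation factor subunit, at 696, 565, 764 and 673 CPM against 1767 in M2 and 489 in M1 cells. The list as a whole was not: its 25 genes summed to a mean of 7782 CPM, against 17423 in M2 and 7919 in M1 cells. Arg1, another M2-type marker, was at 471, 202, 485 and 290 CPM, below M1 cells in every mouse (982, 396, 1818 and 987 CPM). Apoe, the lipid carrier, was at 546, 2043, 1337 and 1455 CPM against 5643 in M2, and vehicle 1 was the low mouse in all 3 populations. Apoe was also below M2 counted per cell, with 33.3 UMIs against 86.95.

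Inflammatory and monocyte genes were lower than in M1 cells. Of 18 M1-type genes, 17 were below M1 in every mouse (median −1.45), and of 13 monocyte genes 12 were (median −2.61). Against M2, 7 of the 13 monocyte genes were above and 0 below in all 4 mice (median 0.59), and 7 of the 18 M1-type genes were above and 3 below (median 0.09). Of all genes 42.6% were above and 31.6% below M2, with a median of 0.07, beside 53.8% of the monocyte and 38.9% of the M1-type genes above. Il1b, the inflammatory cytokine, was at 596, 679, 498 and 542 CPM against 3150 in M1 and 452 in M2 cells. Ly6c2, which marks fresh blood monocytes, was at 12.8, 10.7, 20.02 and 6.57 CPM against 344 in M1 and 5.55 in M2 cells. Plac8, another monocyte gene, had a mean of 74.7 CPM against 994 in M1 cells. All 8 genes of MHC class II presentation, which displays peptides to CD4 T cells, were below M1 in every mouse (median −1.39) and near M2 (median 0.02). Of 10 receptors for colony-stimulating factors and IL-4, 5 were below M2 and 2 above it in every mouse, and Il4ra was at 137, 110, 131 and 108 CPM against 250 in M2 cells.

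Cell cycle phase was called from S and G2/M gene lists on cells thinned to 5000 UMIs, which kept 1294 of the 1297 cells. G2/M was called in 81.1, 80.7, 81.6 and 77.5% of them and S in 18.9, 18.9, 18.4 and 22.0%, and only 3 cells had both scores below 0. In M2 cells 8.13 to 11.0% were called G2/M, 20.2 to 34.0% S and 55.7 to 71.5% G1. At 5000 UMIs the S share was thus larger in M2 cells than in the highly proliferative cells in every mouse. In vehicle 2 this order turned in the other settings. Its S share was 21.5% in the highly proliferative and 21.1% in M2 cells at 3000 UMIs, and 19.3% and 18.7% without thinning. Thinned to 3000 UMIs, G2/M was called in 72.4 to 76.8% of the highly proliferative cells and 2.18 to 4.32% of M2 cells. Most cells were not placed at 1 end: 957 had both scores above 0, and 86 cells (6.65%) had scores within 0.05 of each other. The call is the higher of 2 scores, so it ranks the lists against each other and was not checked against DNA content.

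Cells called S and G2/M differed also in genes outside the call. Ccnb1 had a mean level of 41.5 CPM in cells called S against 149 in cells called G2/M. Plk1, a kinase that starts mitosis, was at 19.5 CPM against 86.8. Cell depth was alike, with mean medians of 27582 and 27186 UMIs. Hist1h1b was not, as a mean, tied to the S call: it was at 574 CPM in S and 527 in G2/M, and was lower in S in digoxin 1 (546 against 583 CPM). Mrc1 was higher in cells called G2/M in all 4 mice, at 643 CPM in S against 959 in G2/M, as was C1qa, a complement component, at 2228 against 3556. The cells with osteoclast genes described next had little of either gene and were called S more often. The osteoclast markers summed to 714 CPM in S and 407 in G2/M, and their part in this difference was not tested. Ccnd1 went the other way, at 420 CPM in S against 212 in G2/M.

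Osteoclast genes marked a small set within these cells. The 5 osteoclast markers summed to 417 to 567 CPM in the highly proliferative cells, against 46.5 to 91.9 in M2 cells, with Oscar at 0. The signal was uneven: 548 cells had none of the 5 genes, 514 had 1, 138 had 2 and 97 had 3 or 4. The 97 cells were 6.93, 9.44, 7.21 and 7.03% of the highly proliferative cells of the 4 mice, against 29 of 4786 M2 cells, 25 of 4280 M1 cells and 254 of 263 cells named Osteoclasts. Cells were not thinned here, and the highly proliferative cells held more UMIs than M2 and M1 cells. The part of depth in these shares was not tested. The count of 3 was chosen after the values were seen, so the marker levels below describe the split.

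In the 97 cells the proteases of bone resorption were high and Mrc1 was low. Acp5, the tartrate-resistant phosphatase, averaged 3020 CPM in them, 85.7 in the other highly proliferative cells and 11381 in the Osteoclasts. Ctsk, cathepsin K, averaged 1350 CPM against 7.91 in the others. Mmp9, a matrix protease outside the marker list, averaged 805 CPM against 7.67, and Nfatc1, the master transcription factor of osteoclasts, 390 against 50.2. Dcstamp, a membrane protein needed for the fusion of osteoclast precursors, was alike in both, at 17.0 and 15.7 CPM, and was at 85.8 in the Osteoclasts. Mrc1 was at 57.0, 12.0, 84.0 and 56.4 CPM in the 4 mice, against a mean of 963 in the others, and C1qa averaged 240 CPM against 3535. These cells therefore carried the sub-cluster name while lacking most of the Mrc1 of the rest.

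Cell cycle genes stayed on in the same cells. Mki67 averaged 591 CPM in the 97 cells, 852 in the other highly proliferative cells and 16.2 in the Osteoclasts, and Top2a averaged 642, 846 and 27.99 CPM. Csf1r was less divided, at 379 CPM in the 97 cells and 477 in the others. The 97 cells were also deeper, with a median of 36361 UMIs against 26823, so their RNA content moved with the split, and 0 of them were marked as doublets. S was called in 34.0% of them and in 18.5% of the others. Across the 1297 cells, which share 4 libraries and differ in depth, the correlation of Acp5 with Atp6v0d2, a proton pump subunit, was 0.86 and that of Acp5 with C1qa −0.63. Whether 2 cells in 1 droplet play a part was not tested beyond the doublet call.

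**Figure D3:**
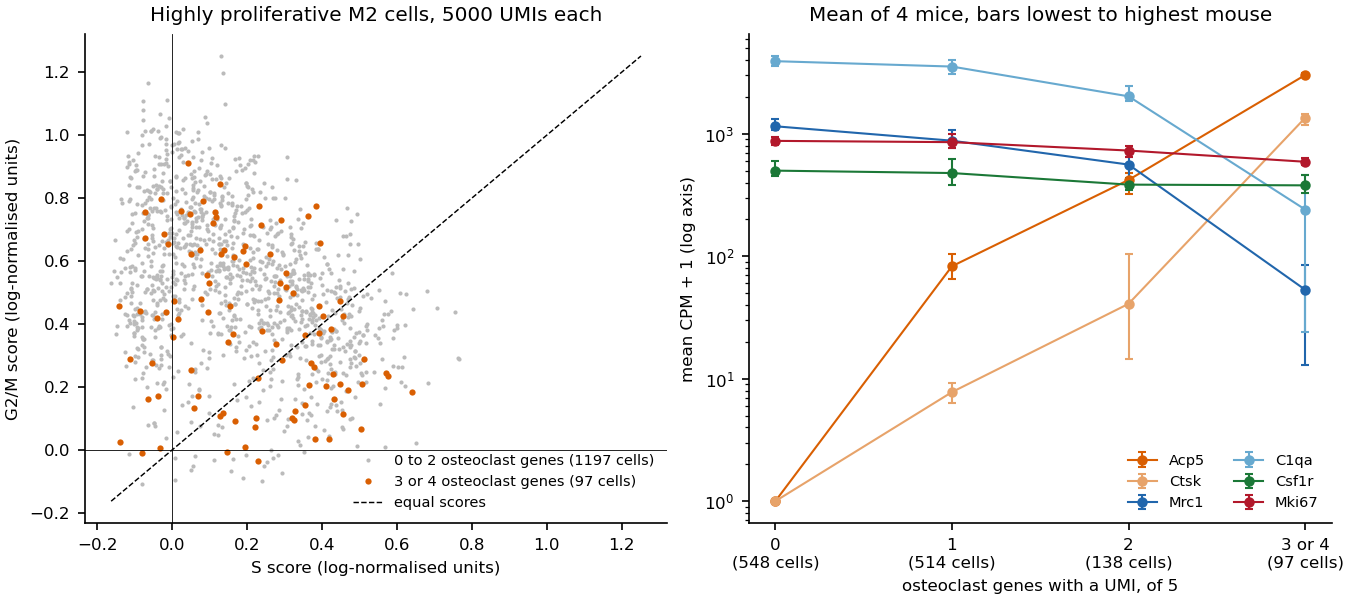
Left, S score against G2/M score (log-normalised units) of each highly proliferative cell at 5000 UMIs, with the 97 cells that had 3 or 4 osteoclast genes in orange. Right, mean level (CPM + 1, log axis) of 6 genes by the number of osteoclast genes with a UMI, with bars from the lowest to the highest mouse. Acp5 and Ctsk are 0 in the first class by construction. Mrc1 and C1qa drop to means of 52.3 and 240 CPM in the last class while Mki67 remains at 591 CPM.

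The share of these cells did not separate the treatments. Of macrophages they made up 15.5 and 9.49% with vehicle and 11.1 and 14.0% with digoxin, or 12.5% ± 4.26 and 12.6% ± 2.06 (SD, n = 2 each), with an exact two-sided permutation p of 1. Of M2 and highly proliferative cells together they were 28.3 and 13.4% with vehicle and 21.2 and 24.4% with digoxin (exact permutation p of 1), and of non-malignant cells 12.4, 7.73, 9.12 and 11.8% (exact permutation p of 1). The digoxin mice lay within the range of the vehicle mice for each share. Without vehicle 2 each difference turned, from 0.0564 to −2.95 percentage points of macrophages, from 1.92 to −5.57 of M2 and highly proliferative cells and from 0.408 to −1.91 of non-malignant cells. With 2 mice against 2, the smallest p this test can give is 0.333. G2/M calls overlapped too, at 80.9% ± 0.269 with vehicle and 79.5% ± 2.89 with digoxin (SD, n = 2 each; exact permutation p of 1). Dissociation and capture also set how many cells of a type are recovered.

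Sequencing depth and mitochondrial share differed slightly with treatment. The median UMIs per cell were 27030 and 25066 with vehicle and 28898 and 27743 with digoxin, a difference of 2272.5 without overlap, at the smallest possible exact permutation p (0.333), and of 1290.5 without vehicle 2. The median mitochondrial share of UMIs was 5.14 and 5.82% with vehicle and 4.78 and 4.54% with digoxin. Both moved with every difference between treatments below, and their part in it was not tested.

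No gene passed the threshold for a digoxin effect. Per mouse, the mean CPM of the cells was compared by limma on the log2(CPM + 1) scale, and of 11459 genes 0 (0%) had an adjusted p under 0.05, with 451 (3.94%) under 0.05 unadjusted. edgeR's quasi-likelihood test on summed UMIs also called 0, with 514 unadjusted, and DESeq2 called 13 (0.113%). Leaving out vehicle 1 gave 256 calls (2.18%), leaving out vehicle 2 gave 11 (0.0923%) and leaving out digoxin 2 gave 2 (0.0171%), and leaving out digoxin 1 gave 0. In each such fit the lone mouse of a group was assumed to vary as the other mice did. Without vehicle 1 the lone vehicle mouse was of the other sex pattern than both digoxin mice. Treatment and sex pattern cannot be told apart in that fit. Both digoxin mice were above both vehicle mice for 1996 genes (17.4%) and below them for 1449 (12.6%), and the counts of the gene lists below stand beside those shares.

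Of the 10 genes with the smallest p that were higher in both digoxin mice, Mmp19, a matrix metalloprotease, was at 30.9 and 23.3 CPM with vehicle and 69.4 and 62.4 with digoxin, which is 1.26 apart on the log2 scale with an SE of 0.16 (limma's adjusted p was 0.605). Vcam1, an adhesion molecule, was at 25.8 and 13.1 CPM against 67.4 and 59.3, or 1.73 apart in log2 with an SE of 0.27 (limma's adjusted p was 1.00). The absence of overlap was part of the choice of these genes. Cxcl13, a chemokine for B cells, was at 22.0 and 0.662 CPM against 82.3 and 268, with the mice of each group far from each other (log2 difference 4.60, SE 1.05). That difference was 2.70 without vehicle 2 and 6.49 without vehicle 1. Cd38, an ectoenzyme that consumes NAD, was at 71.0 and 81.1 CPM against 120 and 125. Hmox1, heme oxygenase, was at 253 and 233 CPM against 442 and 337.

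Of the rest of the 10 higher genes, Crem, a transcription factor of the cAMP response, was at 57.7 and 43.4 CPM with vehicle and 82.4 and 87.8 with digoxin. Rcan1, an inhibitor of calcineurin, was at 38.3 and 43.3 CPM against 59.2 and 68.9, and Ddit3, a transcription factor of the integrated stress response, was at 52.2 and 50.4 CPM against 69.9 and 75.6. Csnk2a2, a catalytic subunit of casein kinase II, and Gramd1b, a sterol carrier, had log2 differences of 0.63 and 0.73. For these genes as well limma's adjusted p was 1.00. Of the 10 higher genes, 10 had the same sign of difference in M2 cells and 8 in M1 cells. Same signs over all genes were not counted, for these genes or for the lower ones below. The groups did not overlap for 6 of them in M2 cells, where 15.8% of 9708 genes were higher in both digoxin mice, and for 6 in M1 cells, where 15.9% were. The 3 populations come from the same 4 tumors.

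Of the 10 genes with the smallest p in the other direction, Fn1, fibronectin, was at 951 and 874 CPM with vehicle and 661 and 508 with digoxin, which is −0.65 in log2 with an SE of 0.13 (limma's adjusted p was 1.00). Ifit3, an interferon-induced antiviral gene, was at 26.1 and 41.4 CPM against 13.6 and 17.4. Isg15, an interferon-induced ubiquitin-like protein, was at 107 and 97.7 CPM against 77.1 and 73.7, and Rtp4, another interferon-induced gene, at 35.5 and 33.8 CPM against 22.5 and 24.6. None of these passed the threshold, and interferon-induced genes were not among the lists counted. Svbp, Slamf9, Glo1 and Cd72 had log2 differences of −0.49, −0.53, −0.44 and −0.54. Of the 10 lower genes, 7 had the same sign in M2 cells, 5 of them without overlap (9.47% of all genes were lower there), and 9 in M1 cells, 7 without overlap (24.6% of all genes). All 20 named genes kept their sign without vehicle 1 and without vehicle 2, which their choice without overlap had fixed in advance. Without vehicle 2, mice of 1 sex pattern were left. Without vehicle 1, the lone vehicle mouse differed in sex pattern from both digoxin mice, so treatment and sex pattern cannot be told apart there.

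**Figure D4:**
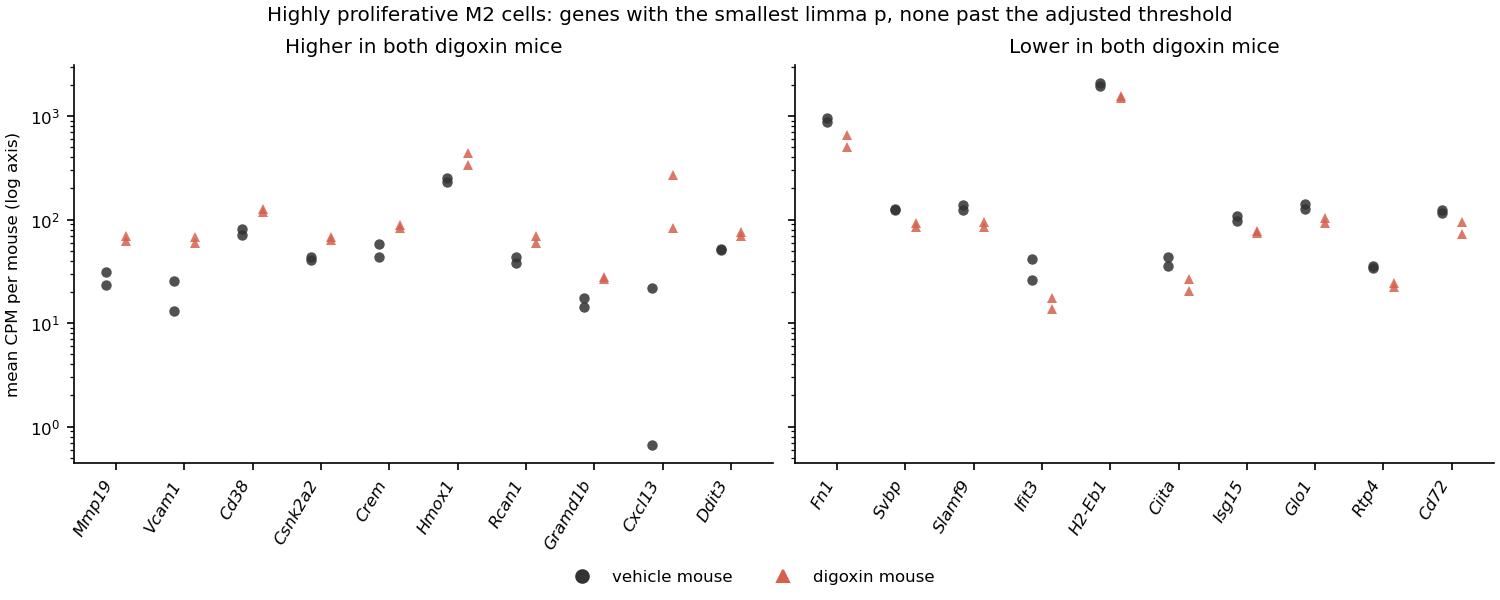
Mean CPM per mouse (log axis) in the highly proliferative cells of the 10 genes with the smallest limma p that were higher (left) and lower (right) in both digoxin mice; circles are the 2 vehicle and triangles the 2 digoxin mice. The symbols of each gene do not overlap between the groups, and none of the 20 genes passed the adjusted threshold.

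Of the cell cycle and macrophage lists, MHC class II was the most one-sided. Of its 8 genes, 7 (87.5%) were below both vehicle mice in both digoxin mice, against 12.6% of all genes, with a median difference of −0.35 on the log2 scale against 0.02 over all genes. Each of the 7 had an unadjusted limma p under 0.05 and none an adjusted one. Ciita, the master regulator of the class II genes, was at 35.5 and 43.3 CPM with vehicle and 26.4 and 20.4 with digoxin. H2-Eb1, a class II beta chain, was at 1936 and 2073 CPM against 1571 and 1487. Cd74, the invariant chain, was at 5500 and 5747 CPM against 4718 and 4374. The 8th gene, H2-Oa, was at 2.44 and 3.003 CPM against 6.31 and 3.51. The list's median was −0.29 without vehicle 2 and −0.41 without vehicle 1. The lower means did not extend to the typical cell: at 5000 UMIs per cell the median sum of the list was 19 and 8 UMIs with vehicle and 14.5 and 13.5 with digoxin, while the upper quartile was 108 and 121 UMIs against 67.75 and 59.5. H2-Aa, a class II alpha chain, had a UMI in 67.2 and 53.2% of the thinned cells with vehicle and 64.5 and 61.0% with digoxin, so the share of cells overlapped as well.

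In M2 cells of the same tumors 0 of the 8 class II genes were lower without overlap (median 0.01), and in M1 cells 7 were (median −0.61), beside the 9.47% and 24.6% of all genes given above. H2-Eb1 in M2 cells was at 1854 and 1536 CPM with vehicle and 2037 and 1658 with digoxin. The difference of the digoxin effect between highly proliferative and M2 cells was −0.51 for H2-Eb1 on the log2 scale, with an adjusted p of 0.799 in limma's interaction term. For H2-Ab1, another beta chain, it was −0.50 with an adjusted p of 0.748. The difference between the 2 populations did not pass the threshold for either gene.

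No gene of the replication or mitotic lists passed the threshold. Of the 35 fork and nucleotide genes, 14 (40.0%) were higher in both digoxin mice and 0 lower, with a median of 0.12 (0.12 without vehicle 2, 0.11 without vehicle 1 and 0.057 in edgeR). Only 1 of the 35 had an unadjusted limma p under 0.05. Rrm2, partner of Rrm1, was at 154 and 165 CPM with vehicle and 193 and 173 with digoxin. Of the 42 genes of the S phase list 19 (45.2%) were higher and 0 lower without overlap. The same genes gave 15 higher and 0 lower in M2 cells, where 15.8% and 9.47% of all genes were, and 6 higher and 8 lower in M1 cells, where 15.9% and 24.6% of all genes were. The 19 licensing genes, of which 0 had an unadjusted p under 0.05, had a median of 0.10 that turned to −0.01 without vehicle 2. The S call itself overlapped between the treatments, as given above.

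Of the 36 mitotic genes 5 were higher and 4 lower without overlap (median −0.03), near the shares of all genes. The most abundant member, Ube2s, was at 653 and 634 CPM with vehicle and 657 and 695 with digoxin, and Kif4, a chromosome-bound kinesin, was at 67.5 and 64.7 CPM against 77.3 and 75.3. Ube2c and Ccnb1, with the values given above, overlapped between the treatments. Cdc20, which activates the anaphase-promoting complex, was at 134 and 159 CPM with vehicle and 113 and 98.5 with digoxin, which is −0.46 in log2 with an SE of 0.13 (limma's adjusted p was 1.00). Pttg1, the securin that Cdc20 helps to destroy, was at 181 and 209 CPM against 151 and 150, and Ccnb2, a mitotic cyclin, at 168 and 195 CPM against 145 and 141. Cenpa, the centromeric histone, was at 258 and 289 CPM against 240 and 210. The lists were not one-sided: of 18 cyclins and kinases 4 were higher and 4 lower without overlap. Of 23 kinetochore and centromere genes 4 were higher and 3 lower, with a median of 0.03 that was −0.12 without vehicle 1 and 0.09 without vehicle 2. Mki67 and Top2a were higher in both digoxin mice, by 0.16 and 0.18 on the log2 scale (limma adjusted p 1.00 for both). Cdkn1a, at 459 and 420 CPM with vehicle, was at 542 and 501 with digoxin (log2 difference 0.25, SE 0.10).

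No gene of the macrophage lists passed the threshold, and the medians of the M1-type and M2-type lists depended on the vehicle mouse. The macrophage core had 1 of 16 genes higher and 0 lower without overlap. Of 25 M2-type genes 6 (24.0%) were higher and 0 lower, with Pf4, a platelet-type chemokine, at 602 and 621 CPM with vehicle against 765 and 949, and Folr2, a folate receptor, at 199 and 199 CPM against 210 and 249. The list's median was 0.19, and it was 0.01 without vehicle 2 and 0.34 without vehicle 1. M1-type genes had a median of 0.29 over 15 tested genes, which was −0.21 without vehicle 2, 0.57 without vehicle 1 and −0.02 in edgeR. Of the 15, 10 had a difference above 0, and 2 were higher and 3 lower without overlap. Cd80, a costimulatory ligand, was among the higher ones, at 26.1 and 19.1 CPM against 30.4 and 29.2. Cxcl10, an interferon-induced chemokine, was lower with digoxin (207 and 249 against 143 and 184 CPM), as was Il1b (596 and 679 against 498 and 542 CPM).

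Other lists held single genes that stood apart. Ccr2, the receptor that brings monocytes out of the marrow, was at 348 and 348 CPM with vehicle and 295 and 197 with digoxin, while Vcan, versican, was at 12.7 and 11.5 CPM against 22.5 and 20.5. Of 17 complement and lipid-associated genes 5 (29.4%) were higher and 0 lower, with Lpl, lipoprotein lipase, at 85.5 and 84.2 CPM against 124 and 109 and Abca1, a cholesterol exporter, at 99.8 and 102 CPM against 156 and 124. Of 17 matrix and secreted factors 5 (29.4%) were higher and 3 (17.6%) lower without overlap. Fn1 was the most abundant of the lower ones and Pdgfb, a growth factor chain, was at 29.1 and 30.2 CPM against 25.004 and 23.3. Among the higher ones Plaur, the urokinase receptor, was at 137 and 143 CPM against 176 and 224 and Thbs1, thrombospondin, at 141 and 179 CPM against 222 and 198. Of 7 tested markers of fibroblasts or sarcoma mesenchyme 4 (57.1%) were lower with digoxin without overlap, beside 12.6% of all genes. Col3a1 was at 53.8 and 50.5 CPM against 37.5 and 48.0. Another 3 of the 7 had a difference above 0. The sum of the listed markers overlapped, at 171 and 159 CPM with vehicle and 122 and 177 with digoxin. The part of collagen-bearing RNA from other cells in Fn1 was not tested.

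**Figure D5:**
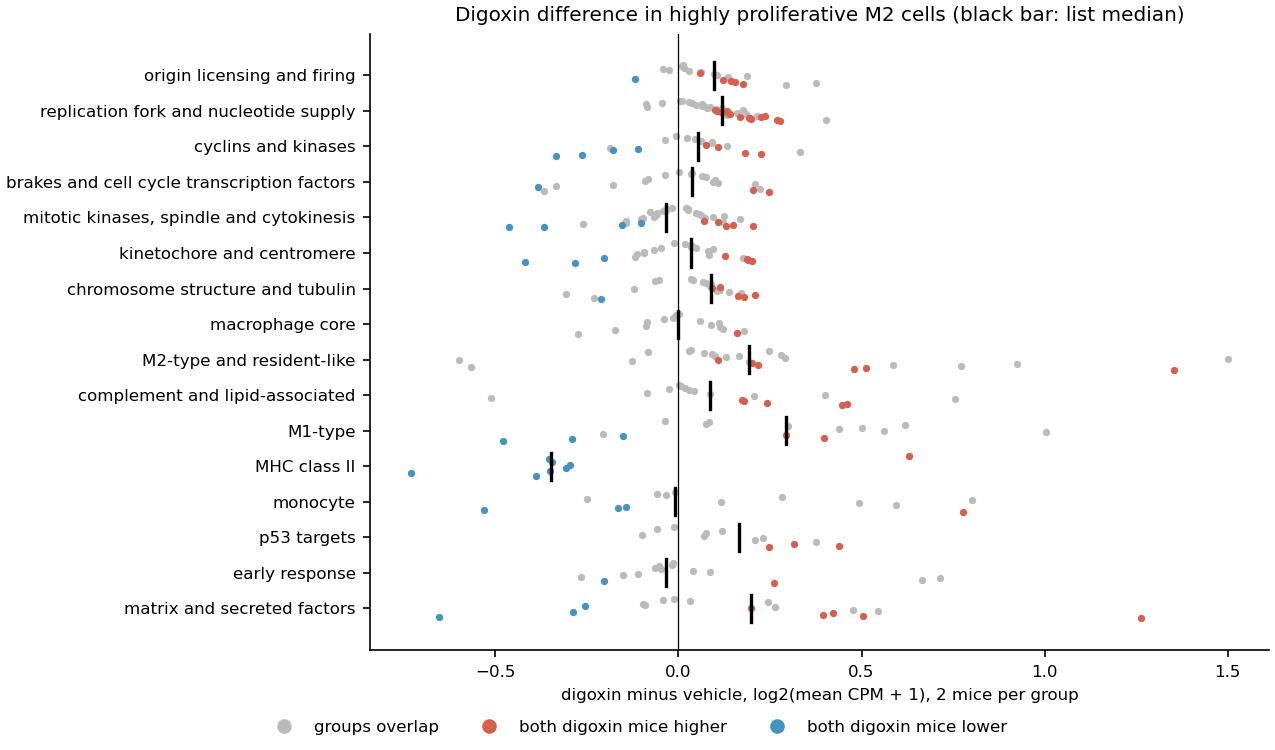
Difference between digoxin and vehicle in the highly proliferative cells, in log2(mean CPM + 1), with 1 point per gene, red where both digoxin mice were higher, blue where both were lower and grey where the groups overlapped; black bars are list medians. The 7 blue points of MHC class II and the 14 red points of the replication fork list stand on 1 side, and no gene passed the adjusted threshold.

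The digoxin effect was also compared between populations, with the mouse kept as a block. Against M2 cells 0 of 12380 genes (0%) passed in limma, with 604 (4.88%) unadjusted, while edgeR called 0 and DESeq2 6. Against M1 cells 6 of 12014 genes (0.0499%) passed in limma, 0 in edgeR and 10 in DESeq2. Fn1 was lower with digoxin in the highly proliferative cells, by −0.65 on the log2 scale, and in M1 cells was at 1627 and 1265 CPM with vehicle and 1946 and 1590 with digoxin. The difference of the effects was −0.95 (SE 0.10; limma adjusted p 0.00771). For Arg1, arginase, the difference was −0.82 (SE 0.09; limma adjusted p 0.00771), with M1 cells at 982 and 396 CPM against 1818 and 987 and the highly proliferative cells at 471, 202, 485 and 290. Rgs1, a brake on G protein signaling, differed by 0.85 (SE 0.10; limma adjusted p 0.00771), being at 129 and 192 CPM with vehicle and 197 and 164 with digoxin in the highly proliferative cells. Each of these 3 calls was lost without digoxin 1 and without digoxin 2.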

How the data were processed

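Single-cell libraries of 4 mouse sarcomas were made with the 10x Genomics 3′ kit, version 3, per the labels' protocols, and processed with Cell Ranger 3.0.2 and Seurat 3.0.2 on mm10, per the submitters' processing notes. The deposited expression values are the natural log of 1 plus UMIs per 10000, made by the authors from each cell's UMIs; with the deposited counts of UMIs per cell they were turned back into whole UMIs (100% whole within 0.01). Cell type names, sample prefixes and counts of UMIs and genes per cell come from the deposited cell tables; the prefix veh3 was read as the second vehicle mouse. The filters on cells and genes and the naming of clusters are not given in the sources used here. Totals of the highly proliferative cells were 10297455, 5889259, 8952021 and 10927931 UMIs per mouse, and 1 further allele of the labelled genotype is not reported here.

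Per mouse, CPM was averaged over cells and tested by limma 3.58.1 with a trend on log2(CPM + 1), after edgeR's expression filter, with Benjamini-Hochberg adjustment at 0.05. edgeR 4.0.16 (quasi-likelihood) and DESeq2 1.42.0 on summed UMIs were alternatives, as were a pseudocount of 10, no filter, summed profiles, removal of doublets or of cells over 10% mitochondrial UMIs, the replicate block and leaving out each mouse; removal of the cells with osteoclast genes was added after seeing the data. The count tool was planned as the main test only for raw counts, and the deposited values are normalized. Interactions kept the mouse as a block. Fits were tested on simulated data. The labels name 2 mice per group, and each is 1 library.

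Named genes were the 10 with the smallest limma p in each direction at a mean of at least 20 CPM without overlap, all genes past the interaction threshold, and up to 4 members per list with the highest mean; other list members named were chosen after their values were seen. The highly proliferative cells and the 32 lists were chosen with earlier results of these data known. Doublets were called by Scrublet in scanpy 1.11.5 (expected rate 0.06), which marked 2 of these cells. Phases were scored in scanpy over all macrophages thinned to 5000 UMIs. Promoter windows are RefSeq's.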

Additional observations from a re-analysis of the deposited data

Results flagged for a closer look

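The digoxin effect differed between highly proliferative M2 and M1 cells by limma's interaction term for 6 genes, with values on the log2(CPM + 1) scale. Fn1, fibronectin, had a difference of −0.95 (adjusted p 0.00771): it was lower with digoxin in both mice among the highly proliferative cells, while the M1 groups overlapped. Cxcl13 had a difference of 2.83 (adjusted p 0.00771), with effects of 4.60 in the highly proliferative and 1.77 in M1 cells, where vehicle 2 was at 0.00 CPM. Arg1 had a difference of −0.82 (adjusted p 0.00771), with effects of 0.28 and 1.10. Rgs1 had a difference of 0.85 (adjusted p 0.00771), with effects of 0.19 and −0.66. Apoe had a difference of 0.88 (adjusted p 0.0105), with effects of 0.40 and −0.48; vehicle 1 was far below vehicle 2 in both populations, at 546 against 2043 CPM in the highly proliferative cells. Timd4, a phosphatidylserine receptor of resident macrophages, had a difference of 1.95 (adjusted p 0.0368), with levels of 5.67, 2.76, 9.23 and 15.004 CPM in the highly proliferative cells and 14.6, 14.9, 6.82 and 12.9 in M1 cells.

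All 6 kept their sign in every alternative in which they were fitted, and none passed in edgeR, in profiles of summed UMIs or over all genes with a UMI. In DESeq2 4 of them passed, and with a pseudocount of 10 all 6 did. Without vehicle 1 and without vehicle 2 all 6 passed. Without digoxin 1 the call was lost for 5 of the 6, all but Cxcl13, and without digoxin 2 for 4, all but Cxcl13 and Apoe; the adjusted p of Fn1 was 0.0655 and 0.0817. Without cells over 10% mitochondrial UMIs it was lost for Timd4 (adjusted p 0.0692).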

How the results depend on the processing

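The count of genes with a digoxin effect was 0 in the reported limma fit. It stayed at 0 with edgeR, summed profiles, a pseudocount of 10, no expression filter, without doublets, without cells over 10% mitochondrial UMIs and, as an addition made after seeing the data, without the 97 cells with osteoclast genes. It was 13 in DESeq2 and 0 to 256 when 1 mouse was left out. The replicate block also gave 0; same-numbered mice had deviations correlated at 0.03, and with 2 pairs the labels share only a number.

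The difference of the effect against M2 was 0 genes as reported, 6 in DESeq2, 2 with a pseudocount of 10 and 10 to 138 when 1 mouse was left out. Against M1 it was 6 as reported, 0 in edgeR, 10 in DESeq2, 0 in summed profiles, 10 with a pseudocount of 10, 0 over all genes with a UMI and 1 to 378 when 1 mouse was left out. The cause was not tested. A fit with 1 mouse in a group takes its spread from the other mice, and the fit over all genes adjusts over more of them. The part of either in these counts was not tested.

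Differences in shares are in percentage points, digoxin minus vehicle. The share of macrophages was 0.0564 higher, turned to −0.396 without cells over 10% mitochondrial UMIs, and ranged from −2.95 to 3.07 when 1 mouse was left out (−1.40 without digoxin 2). The share of M2 and highly proliferative cells, 1.92 higher, was 0.613 without cells over 10% mitochondrial UMIs and ranged from −5.57 to 9.41. The share of non-malignant cells, 0.408 higher, was 0.0516 without those cells and ranged from −1.91 to 2.72 (−0.926 without digoxin 2). The G2/M share, −1.34 as reported, was 1.14 without cells over 10% mitochondrial UMIs, −3.48 with doublets removed from all macrophages before scoring, and ranged from −3.39 to 0.702. Both removals also drew the thinning anew, and only 2 highly proliferative cells were marked as doublets. The part of the new draw in these values was not tested. The difference in median UMIs ranged from 1290.5 to 3254.5. Genes at low CPM, such as Timd4 and H2-Oa, rest on few UMIs per cell.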
